A study of Saccharomyces cerevisiae with 12 samples.

Results

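Heat shock proteins and their cochaperones were followed over 38 genes of Saccharomyces cerevisiae, chosen by name as the Hsp104, Hsp90, Hsp70, Hsp60 and small heat shock protein families, their J proteins, exchange factors and Hsp90 cochaperones, and the regulator HSF1. A probe set counted as theirs where every gene it names is on that list, and of several probe sets for a gene or gene pair the one with the highest mean signal was kept. This gave 39 features among the 5859 of the whole array table. Of the 38 genes, 36 had a feature of their own, SSB1 and SSB2 shared one, and 2 further features named the pairs HSC82/HSP82 and SSA1/SSA2. The filter on low signals left 38 of these 39 features, among 4687 in all, and removed APJ1, a J protein gene whose signals lay between 85.7 and 352. By textbook knowledge, 14 of the genes were classed as induced by heat, 11 as constitutive and 13 as expressed constitutively and raised by heat. This was done by hand, with earlier results of these data known. These classes held 13, 10 and 13 tested features, and the remaining features named a pair with 1 gene of each kind.

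Chaperones bind unfolded or aggregated proteins and help them to fold, to cross membranes or to be taken apart again. In yeast, the heat shock transcription factor Hsf1 binds the promoters of most of these genes and raises their transcription within minutes of a shift to high temperature, and Msn2 and Msn4 act on a group that includes HSP12, HSP26 and HSP104. Several families keep a constitutive and an inducible copy of nearly the same protein, such as HSC82 and HSP82 or SSA2 and SSA4. Rap1 and Abf1 are general regulatory factors that bind many yeast promoters, Rap1 above all those of ribosomal protein and glycolytic genes.

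Total RNA was hybridised to 12 Affymetrix arrays, 3 in each of 4 groups. These were a rap1 ts strain, the wild type grown as its control, an abf1 ts strain and the wild type grown as its own control. A ts protein works at low and fails at high temperature, and the series' design text states that both mutant proteins lose DNA binding at 37 C. Cultures of all 4 groups were grown at 25 C and then spent 1 h at 37 C, so that the wild types were heat-shifted as well and no array of unshifted cells was used here. The induction of chaperones by heat was therefore not measured, only how heat-shifted strains differed. The sources used here give no alleles or strain backgrounds and do not say whether replicates were separate cultures, so p-values cover only the spread between these arrays, which may be technical. RNA came from whole cultures, in which fewer cells with a transcript and less transcript per cell cannot be told apart.

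Values were MAS5 signals, the brightness of a probe set after background correction, which the authors' software had scaled to nearly 1 trimmed mean of 1497 to 1500 on every array. The median signal ran from 390.4 on wild type array 2 of the rap1 series to 598 on wild type array 3 of that series. Control ratios that bear on RNA quality had higher means in rap1 ts than in its wild type. The ratio of 3′ to 5′ signal for actin, which grows as RNA is degraded or copied incompletely, had a geometric mean of 30.1 in rap1 ts against 6.75 in its wild type and 7.93 in abf1 ts against 12.02 in its wild type. With 3 arrays a group the two-sided exact permutation test gave p = 0.1 for rap1, the smallest it can give, and p = 0.6 for abf1. For SPT15 the ratio was 56.9 on rap1 ts array 1 and at most 16.2 on every other array. For SRB4 the geometric mean was 228 in rap1 ts against 46.4 in its wild type, with overlap of the groups. It was 123 in abf1 ts against 177 in its wild type (p = 0.2 for rap1 and 0.7 for abf1 in the same permutation test). The highest SRB4 ratio, 701, was on wild type array 3 of the abf1 series. RAP1 and ABF1 transcripts do not test the labels, since a ts allele alters the protein. RAP1 differed by -0.12 on the log2 scale in rap1 ts and ABF1 by 1.61 in abf1 ts, and neither passed the limma test (adjusted p = 0.842 and 1.00).

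Loss of Rap1 binding was asked first, by rap1 ts against its own wild type. No member passed limma's test across all 4687 features at an adjusted p under 0.05, where 0.405% of all features did (0.0427% higher and 0.363% lower). Replicate numbers were taken as pairs, however, since arrays of equal number deviated together from their group means within each series. The labels do not say what a number marks, so this pairing was inferred from the same data. With the replicate number as a block, 7 of 38 members rose in rap1 ts and none fell. They were HSP30, SSA4, BTN2, HSP82, MDJ1, SSQ1 and the SSA1/SSA2 feature. Their share of 18.4% was near that of all features, of which 15% rose, 10% fell and 25% did either under the same block. Among inducible chaperones 4 of 13 rose, among constitutive ones 1 of 10 and among those expressed constitutively and raised by heat 1 of 13. The SSA1/SSA2 feature, which names a gene of each kind, lies outside these classes. Without the block, 4 members lay above the wild type at an unadjusted p under 0.05 (12.9% of all features did) and none below (9.34% of all features). Both arms of this comparison differed in the actin ratio given above, and its part in the result was not tested.

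Classes were also described by the size of their differences, with no test between them. The median log2 difference between rap1 ts and its wild type was 0.85 over the 13 inducible features, 0.074 over the 10 constitutive ones and 0.31 over the 13 of the third class, beside 0.088 over all features. All 13 inducible features, 6 of 10 constitutive ones and 55.9% of all features lay above 0. The inducible median was -0.0082 in pair 1, 2.19 in pair 2 and 0.57 in pair 3, and the constitutive median was -0.0052, 0.13 and 0.13. Over all features the median was -0.092, 0.28 and 0.13 in the same pairs. Pair 2 carried most of the size of the inducible median, and in pair 1 the classes were alike. Leaving out wild type array 2, the control of pair 2, lowered the inducible median to 0.41, and leaving out wild type array 3 raised it to 1.29. The constitutive median was -0.014 after each array was centred on its median, so its direction was not settled.

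**Figure D1:**
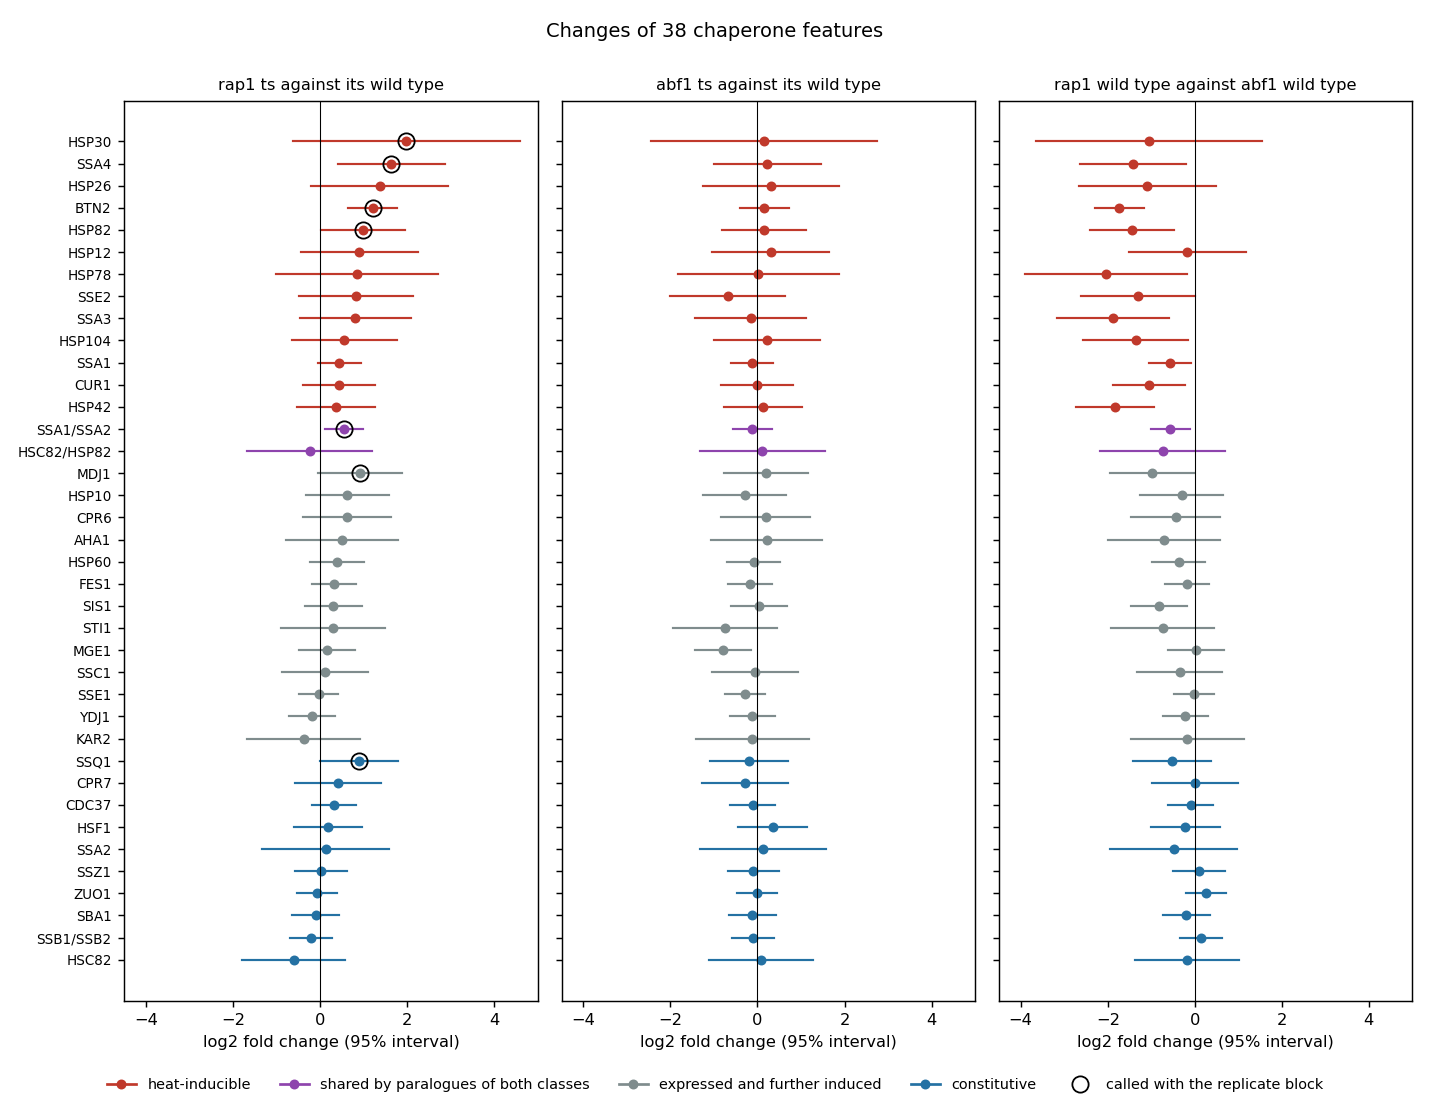
Log2 difference of each of the 38 tested features (points) with its 95% interval from limma (bars), for rap1 ts against its wild type, abf1 ts against its wild type, and the rap1 wild type against the abf1 wild type. Circles mark features with an adjusted p under 0.05 in the fit with the replicate block: 7 in the first panel, from HSP30 at 1.98 to SSA1/SSA2 at 0.55, and none in the others.

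Of the small heat shock and membrane proteins, HSP30 had the largest difference of all members. It encodes a plasma membrane protein that restrains the proton pump Pma1. Its signals were 5379, 2477 and 597 in the 3 wild type arrays of the rap1 series and 13386, 21205 and 1753 in rap1 ts, in the order of replicate number. The groups overlapped, but the mutant was higher in each of the 3 pairs, by 1.31, 3.09 and 1.53 on the log2 scale. HSP30 rose 3.94-fold (log2 1.98, SE 1.21, limma adjusted p = 0.340 without the block, and SE 0.31, adjusted p = 0.00589 with it). In the abf1 series the signals were 3007, 18149.9 and 1313.5 in the wild type and 4401, 18867 and 1182 in the mutant. Array 3 was the lowest of its group in all 4 groups. Replicate number within the series took 79.1% of its sum of squares over the 12 arrays, and the groups took 17.7%.

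The other members of this role were higher in rap1 ts without passing the test in either fit. HSP26, a small heat shock protein that holds unfolded proteins in large assemblies, read 2897, 611 and 5333 in the wild type and 2721, 7451 and 8096 in rap1 ts. Its log2 difference of 1.36 (limma adjusted p = 0.281, and 0.0809 with the block) came mostly from pair 2, where it was 3.58 against -0.090 in pair 1. HSP12, a small membrane-associated stress protein, differed by 0.90 on the log2 scale (block adjusted p = 0.0822 in limma). HSP42, which gathers misfolded proteins into aggregates, differed by 0.37, lower in pair 1 by -0.74 and higher in pairs 2 and 3 by 0.81 and 1.04.

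Among disaggregases and sequestrases BTN2 rose, by a like amount in each pair (1.38, 1.32 and 0.92 on the log2 scale). Btn2 directs misfolded proteins to storage sites in the cell. Its signals were 422, 358 and 469 in the wild type of the rap1 series and 1117, 912 and 899 in rap1 ts. Every mutant array lay above every wild type array. BTN2 rose 2.31-fold in rap1 ts (log2 1.21, SE 0.26, limma adjusted p = 0.0858 without the block and 0.0106 with it). In the abf1 series the signals were 1384, 1107 and 1824 in the wild type and 1528, 1822 and 1392 in the mutant, so that rap1 ts lay above its own wild type and, but for an overlap of 1117 with 1107, below the abf1 series. CUR1, its paralogue, differed by 0.44 (limma adjusted p = 0.502), HSP104, the disaggregase that pulls proteins out of aggregates, by 0.56 (0.564), and HSP78, its mitochondrial counterpart, by 0.85 (0.566) on the log2 scale. HSP78 and HSP104 lay slightly below the wild type in pair 1, by -0.21 and -0.38, and far above it in pair 2, by 2.19 and 1.91.

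**Figure D2:**
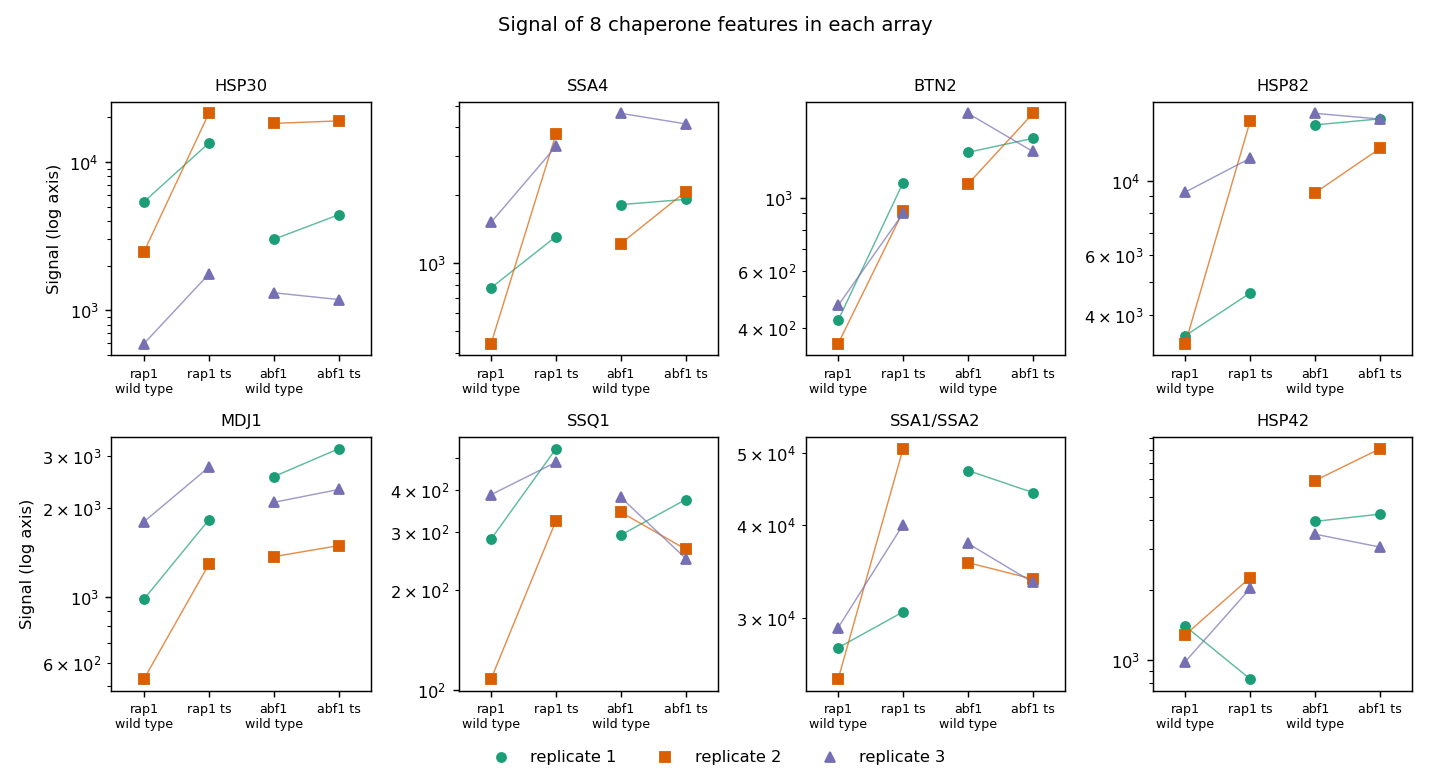
MAS5 signal on a log axis for 8 features on the 12 arrays, by group, with lines joining arrays of equal replicate number. HSP30 is lowest on array 3 of every group and runs from 597 to 21205, while BTN2 is between 357.8 and 469 in the rap1 wild type and at least 899 in every other group.

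Of the Hsp90 genes, the inducible copy was called with the block, while the direction of the constitutive copy was not settled. HSP82, the inducible one, read 3461, 3279 and 9247 in the wild type of the rap1 series and 4636, 15042 and 11659 in rap1 ts. The groups overlapped at the highest wild type array, and all 3 pairs were higher in the mutant. HSP82 rose 1.98-fold (log2 0.98, SE 0.45, limma adjusted p = 0.219 without the block and 0.0455 with it). HSC82, the constitutive copy, read 5899, 8437 and 12429.6 in the wild type and 1801, 9326 and 10269 in rap1 ts. The first mutant array was the lowest of all 12 and the other mutant arrays lay within the wild type range. Its log2 difference was -0.61 (95% interval -1.80 to 0.57, limma adjusted p = 0.513), and 0.20 without rap1 ts array 1. The change of HSP82 minus that of HSC82 was 1.59 ± 0.85 (SD, n = 3 pairs) on the log2 scale in rap1 ts, and positive in each pair. The feature that names both genes differed by -0.24. In pair 1 it differed by -1.59 where HSP82 differed by 0.42, so these probe sets disagreed on the direction there.

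None of the 6 Hsp90 cochaperone genes passed the test in rap1 ts, where 25% of all features did with the block, a count too small to set this group apart. CPR6, a cyclophilin, differed by 0.61, AHA1, the activator of the Hsp90 ATPase, by 0.50, and CPR7, another cyclophilin, by 0.41 on the log2 scale. CDC37, which brings kinases to Hsp90, differed by 0.32, STI1, which links Hsp70 to Hsp90, by 0.29 and SBA1, the p23 homologue, by -0.10. Limma adjusted p-values with the block were between 0.144 and 0.709 for these genes.

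SSA4, the heat-inducible cytosolic Hsp70, had the second largest change. Its signals were 777, 439 and 1516 in the wild type of the rap1 series and 1312, 3735 and 3295 in rap1 ts. Only the lowest mutant array fell within the wild type range, and all 3 pairs were higher, by 0.75, 3.05 and 1.11 on the log2 scale. SSA4 rose 3.11-fold (log2 1.64, SE 0.57, limma adjusted p = 0.140 without the block and 0.0158 with it).

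SSA3, also inducible, read 291, 152.5 and 490.5 in the wild type and 298.5, 558 and 746 in rap1 ts, a log2 difference of 0.80 (limma adjusted p = 0.423, and 0.108 with the block). SSA4 differed by 0.83 ± 0.39 (SD, n = 3 pairs) more than SSA3 on the log2 scale. Between the more abundant copies the order was not settled. SSA1 read 21679, 20742 and 21818 in the wild type and 21229, 38125 and 30559 in rap1 ts, with array 1 of the mutant inside the wild type range and the other mutant arrays above it. SSA2, called constitutive, read 8234, 6965 and 19084 in the wild type and 3688, 18825 and 20573 in rap1 ts, with the lowest and the highest of the 6 values both in the mutant. Their log2 differences were 0.44 (limma adjusted p = 0.256) and 0.13 (0.926), and SSA1 minus SSA2 was 0.32 ± 0.84 (SD, n = 3 pairs).

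SSA1 and SSA2 are nearly identical in their coding sequence, so their signals may share labelled RNA. The feature that names both read 27396, 24867 and 29152 in the wild type and 30609, 50717 and 40098 in rap1 ts, without overlap. It rose 1.46-fold (log2 0.55, SE 0.21, limma adjusted p = 0.162 without the block and 0.0490 with it). A second, dimmer probe set for the same pair differed by -0.14 on the log2 scale, with 1939 on rap1 ts array 1, so the probe sets disagreed on the direction.

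**Figure D3:**
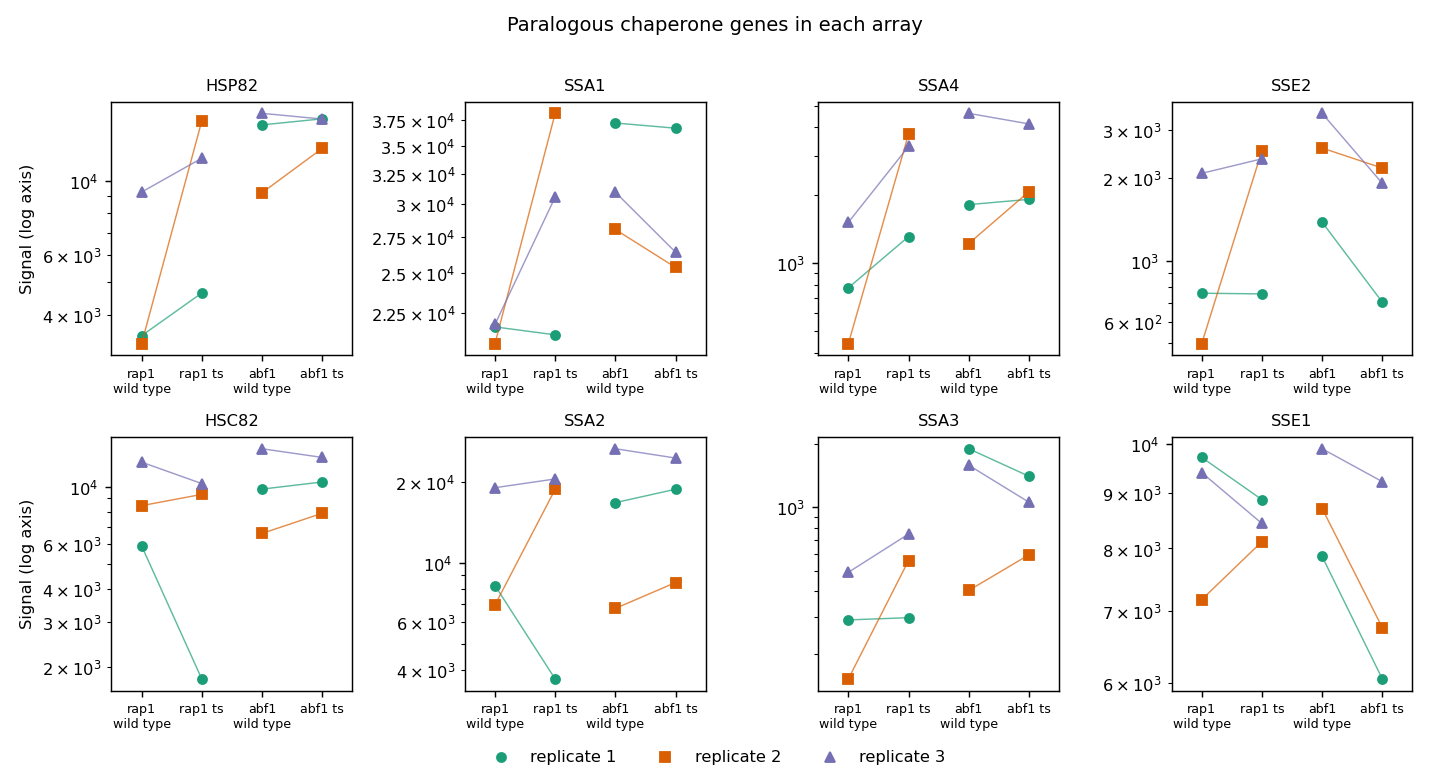
MAS5 signal on a log axis on the 12 arrays for paralogous Hsp90, Ssa Hsp70 and Hsp110 genes, with lines joining arrays of equal replicate number. The top row holds HSP82, SSA1, SSA4 and SSE2, all classed as inducible. The bottom row holds HSC82, SSA2, SSA3 and SSE1, of which SSA3 is classed as inducible too. HSC82 and SSA2 have their lowest signals of 1801 and 3688 on rap1 ts array 1, where HSP82 and SSA4 stand above the wild type array of the same number.

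None of the tested J proteins and exchange factors of the cytosol passed the test in rap1 ts. With the block 25% of all features did, and 0.405% without it, so a group this small is not set apart. YDJ1, the main J protein partner of the Ssa Hsp70s, differed by -0.18 and SIS1, an essential J protein, by 0.31 on the log2 scale. FES1, an exchange factor that frees misfolded proteins from Hsp70, read 5836.5, 5484 and 4869.5 in the wild type and 6398, 6797 and 7039 in rap1 ts, without overlap, but its log2 difference of 0.32 did not pass limma's test (adjusted p = 0.412, and 0.149 with the block). Of all features, 16.1% were higher in rap1 ts without overlap of the groups. Of the members 3 were, namely BTN2, FES1 and SSA1/SSA2, a share of 7.89%. None was lower without overlap, against 10.5% of all features.

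SSE1 and SSE2 encode Hsp110 exchange factors. SSE2, the more inducible copy, read 761, 498.5 and 2082 in the wild type and 757, 2519 and 2352 in rap1 ts. SSE1 read 9720.2, 7171 and 9409 in the wild type and 8880.1, 8118 and 8439 in rap1 ts. The mutant lay inside the wild type range for SSE1, while for SSE2 the 2 highest mutant arrays exceeded it. Log2 differences were 0.82 for SSE2 (limma adjusted p = 0.427) and -0.036 for SSE1 (0.936), and their difference of 0.86 ± 1.10 (SD, n = 3 pairs) was smaller than its own spread.

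No chaperone of the ribosome passed the test in rap1 ts, where 25% of all features did with the block and 0.405% without it. The features are too few for this to set the group apart. The feature of SSB1 and SSB2, whose Hsp70s bind nascent chains, read 17465, 24856 and 13845 in the wild type and 16085, 16339.8 and 14761 in rap1 ts. Wild type array 2 was the highest of the 12 and the mutant lay within the wild type range. Its log2 difference was -0.21 (95% interval -0.69 to 0.27, limma adjusted p = 0.585). ZUO1 and SSZ1, the J protein and Hsp70 of the ribosome-associated complex, differed by -0.077 and 0.020.

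Of the 7 mitochondrial chaperones, HSP78 included, MDJ1 and SSQ1 rose, against 15% of all features with the block. MDJ1, the J protein of the matrix Hsp70, read 984, 528 and 1798 in the wild type of the rap1 series and 1825, 1290.1 and 2750.1 in rap1 ts. The groups overlapped, and all 3 pairs were higher in the mutant by 0.88, 1.27 and 0.61. MDJ1 rose 1.89-fold (log2 0.92, SE 0.45, limma adjusted p = 0.240 without the block and 0.0116 with it).

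SSQ1, a specialised matrix Hsp70 for the assembly of iron-sulphur clusters, read 285, 108 and 388 in the wild type and 535, 324 and 487 in rap1 ts. Wild type array 2 was the lowest of the 12, and again each pair was higher in the mutant. SSQ1 rose 1.86-fold (log2 0.89, SE 0.41, limma adjusted p = 0.225 without the block and 0.0478 with it). SSC1, the main matrix Hsp70, HSP60 and HSP10, which form the mitochondrial chaperonin, and MGE1, the exchange factor of Ssc1, differed by 0.12, 0.39, 0.62 and 0.16 on the log2 scale. None of these 4 passed the test (block adjusted p 0.154 to 0.754 in limma).

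KAR2, the Hsp70 of the endoplasmic reticulum, differed by -0.38, with 3398 on rap1 ts array 1 and 16161 and 17901 on the other mutant arrays. HSF1 itself, the regulator of most of the members, read 1785, 1742 and 1237 in the wild type and 2703, 1780.2 and 1168 in rap1 ts. The mutant had both the highest and the lowest value. Its log2 difference of 0.18 (95% interval -0.61 to 0.97, limma adjusted p = 0.791) did not pass the test, and it was -0.12 without rap1 ts array 1. The transcript level of HSF1 does not measure the activity of the protein.

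The calls made with the block rested on few arrays. Without pair 1, 4 members rose, namely HSP30, SSA4, MDJ1 and HSP42. Without pair 2, HSP30, SSA4 and BTN2 rose, while HSC82, the HSC82/HSP82 feature and KAR2 fell. Without pair 3, HSP30 alone rose. Of all 4687 features, 549, 837 and 172 were called in either direction in these fits, against 1171 with all pairs. In each fit the members named were no larger a share of the 38 than the called features were of all features. The calls under these omissions therefore do not set the members apart, and the split of all features by direction is not given here. HSP30 was the member called under every one of these omissions. Its log2 difference was 1.12 without wild type array 3 and 3.06 without mutant array 3. Without wild type array 2, MDJ1 differed by 0.48 and SSQ1 by 0.39. HSP82 differed by 0.64 without mutant array 2 and by 1.49 without mutant array 1.

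The abf1 comparison asked the same of Abf1. No member passed the test in abf1 ts against its wild type, with or without the block, where 0.0427% and 0.213% of all features did, and 1 member lay below at an unadjusted p under 0.05 (2.82% of all features, with 0.277% above). The median log2 difference was 0.15 over the inducible features, -0.10 over the constitutive ones and -0.029 over all features. The 38 members ranged from -0.79 to 0.35.

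The largest difference was that of MGE1, the mitochondrial exchange factor. Its signals were 1869.9, 2124 and 2219 in the abf1 wild type and 766, 1761 and 1239.7 in abf1 ts. Every mutant array lay below every wild type array, which was so for 5.33% of all features and for no other member. No member was higher without overlap, against 2.28% of all features. MGE1 differed by -0.79 on the log2 scale (95% interval -1.44 to -0.14, limma adjusted p = 1.00 without the block and 0.264 with it). STI1 read 6541, 4367 and 12937 in the wild type and 3608, 2806 and 7668 in abf1 ts, lower in each pair, with a log2 difference of -0.75 (adjusted p = 0.259 with the block).

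Of the inducible genes called in rap1 ts, SSA4 and HSP82 are given here for abf1 ts. SSA4 read 1818, 1221 and 4619 in the abf1 wild type and 1918, 2076 and 4146 in abf1 ts, a log2 difference of 0.23 (SE 0.57). For HSP82 the signals were 14643, 9202 and 15847 and 15263.5, 12469.6 and 15242, with a difference of 0.15. HSP82 minus HSC82 was 0.067 ± 0.11 (SD, n = 3 pairs).

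Whether both mutant effects differed was tested directly, as the rap1 difference minus the abf1 difference. No member passed without the block, nor did any other feature (0%), and 3 members (BTN2, MGE1 and SSA1/SSA2) were higher at an unadjusted p under 0.05, as were 8.21% of all features. None was lower (4.5% of all features). With the block, HSP30 alone of the 38 passed, at 1.83 on the log2 scale (SE 1.71, limma adjusted p = 0.630 without the block and 0.0382 with it), while 9.09% of all features did, 6.21% upward and 2.88% downward. The call was lost when any replicate pair was left out, and the difference was 0.77 without abf1 wild type array 2 and 2.91 without rap1 ts array 3. The effects of SSA4 differed by 1.41 (adjusted p = 0.116 with the block), those of SSE2 by 1.51 (0.101) and those of BTN2 by 1.05 (0.0789).

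The wild types, both heat-shifted and neither mutant, were compared to see how far the controls stood apart. The rap1 wild type had the lower level in all 13 inducible features and in 33 of all 38, and was higher in 5, while it was higher in 37.4% of all features. The median log2 difference between the rap1 and the abf1 wild type was -1.36 over the inducible features, -0.14 over the constitutive ones, -0.35 over the third class and -0.11 over all features. Set against the array of equal number, which does not pair the wild types, the inducible median was -1.21, -1.59 and -0.72. Centring each array on its median moved the median of all features from -0.11 to 0.0034 and that of the members from -0.51 to -0.39. This comparison has the rap1 wild type in common with the rap1 comparison above, so a low value there enters both.

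No feature on the arrays passed the adjusted threshold between the wild types, with or without a block (0% each). At an unadjusted p under 0.05, 12 of the 38 members were lower in the rap1 wild type and none was higher, against 2.94% lower and 0.384% higher over all features. They were BTN2, CUR1, HSP104, HSP42, HSP78, HSP82, SSA1, SSA3 and SSA4 of the inducible class, MDJ1, SIS1 and the SSA1/SSA2 feature. The strongest was BTN2 with a log2 difference of -1.74 (SE 0.26, limma adjusted p = 0.0803). It was 3.33-fold lower in the rap1 wild type, whose 3 values lay far below the abf1 wild type values given above.

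HSP42 read 1399, 1285 and 985 in the rap1 wild type and 3942, 5905 and 3474 in the abf1 wild type. The groups did not overlap and differed by -1.83 on the log2 scale (SE 0.42, limma adjusted p = 0.574). HSP78 read 387.5, 244 and 2667 and 2668, 1995 and 3591, a difference of -2.04, the largest of the members and one with overlap at 1 rap1 array. SSA3 read 291, 152.5 and 490.5 against 1898, 402 and 1584, a difference of -1.88 with overlap.

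In 6 members the rap1 wild type was lower without overlap, namely BTN2, CUR1, HSP42, SIS1, SSA1 and SSA1/SSA2. That was 15.8% of the members, against 7.19% of all features. None was higher without overlap, against 2.03%. Leaving out single arrays kept the inducible median between -1.82 and -1.04. Wild type array 2 of the rap1 series, which has the lowest median signal of the 12, held the lowest signal of 19 of the 38 members, and of 26.5% of all features. Without that array the inducible median was -1.04. The actin ratio was 18.2, 6.58 and 2.56 on the rap1 wild type arrays and 8.73, 11.4 and 17.4 on those of abf1. Strain, culture and handling of the series cannot be told apart from the wild type groups.

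**Figure D4:**
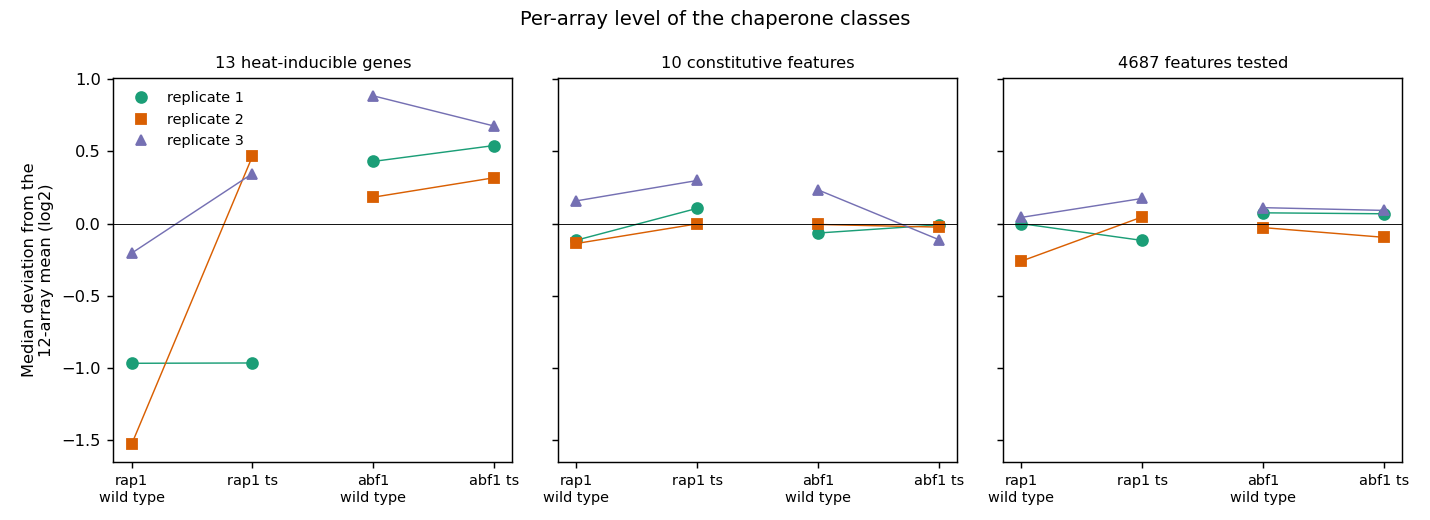
Median log2 deviation of each array from the mean over all 12 arrays, for 13 inducible features, 10 constitutive features and all 4687 features, by group. The inducible median is -0.97, -1.53 and -0.20 on the rap1 wild type arrays, -0.97, 0.47 and 0.35 in rap1 ts and between 0.18 and 0.89 on the 6 arrays of the abf1 series.

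Setting the groups side by side, the inducible class was lowest in the rap1 wild type, and 2 of the 3 rap1 ts arrays reached the level of the abf1 series. The array median of the 13 inducible deviations was -0.97, -1.53 and -0.20 in the rap1 wild type and -0.97, 0.47 and 0.35 in rap1 ts. In the abf1 wild type it was 0.43, 0.18 and 0.89, and in abf1 ts 0.54, 0.32 and 0.68. For constitutive features the array medians stayed between -0.14 and 0.30 in all groups. Over all features they stayed between -0.26 and 0.17.

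The mutants were also compared directly. Without a block no member passed the test between rap1 ts and abf1 ts, where 1.6% of all features did. At an unadjusted p under 0.05, 1 member was higher and 2 were lower, against 7.34% of all features in each direction. With the number as a block over all 12 arrays, an alternative added after seeing the data, HSP42 alone of the members passed, lower in rap1 ts. Of all features, 3.9% were lower, 5.42% higher and 9.32% either. This block also treats the wild types as matched by number, although they were not taken as pairs. HSP42 read 829.5, 2262 and 2032.5 in rap1 ts and 4237, 8085.5 and 3059 in abf1 ts, with no overlap. It was lower in rap1 ts with a log2 difference of -1.58 (SE 0.42, limma adjusted p = 0.0867 without the block and 0.0161 with it). The direction was that of the wild types, where the difference was -1.83. BTN2 differed by -0.69 (block adjusted p = 0.0832) and MGE1 by 0.97 (0.0533), both without overlap, as was SIS1 at -0.55. Of all features, 8.19% were lower and 9.39% higher in rap1 ts without overlap.

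Members differed in how their variation was divided, which was described without a test. Random values alone would also give each source a share. Over the 12 arrays, the groups took a median of 47.6% of the sum of squares of the inducible features and the replicate number took 36.5%. For constitutive features the shares were 20.5% and 64.2%, and over all features 32.6% and 48.5%. BTN2 stood at one end, with 93.4% for the groups and 1.43% for the number, and HSP42 followed with 76.8%. HSP30 at 79.1%, SSC1 at 78.5% and STI1 at 77.6% had the largest shares for the number. The highest signal exceeded the lowest by a median of 6.76-fold for inducible and 2.59-fold for constitutive features, against 2.81-fold for all.

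**Figure D5:**
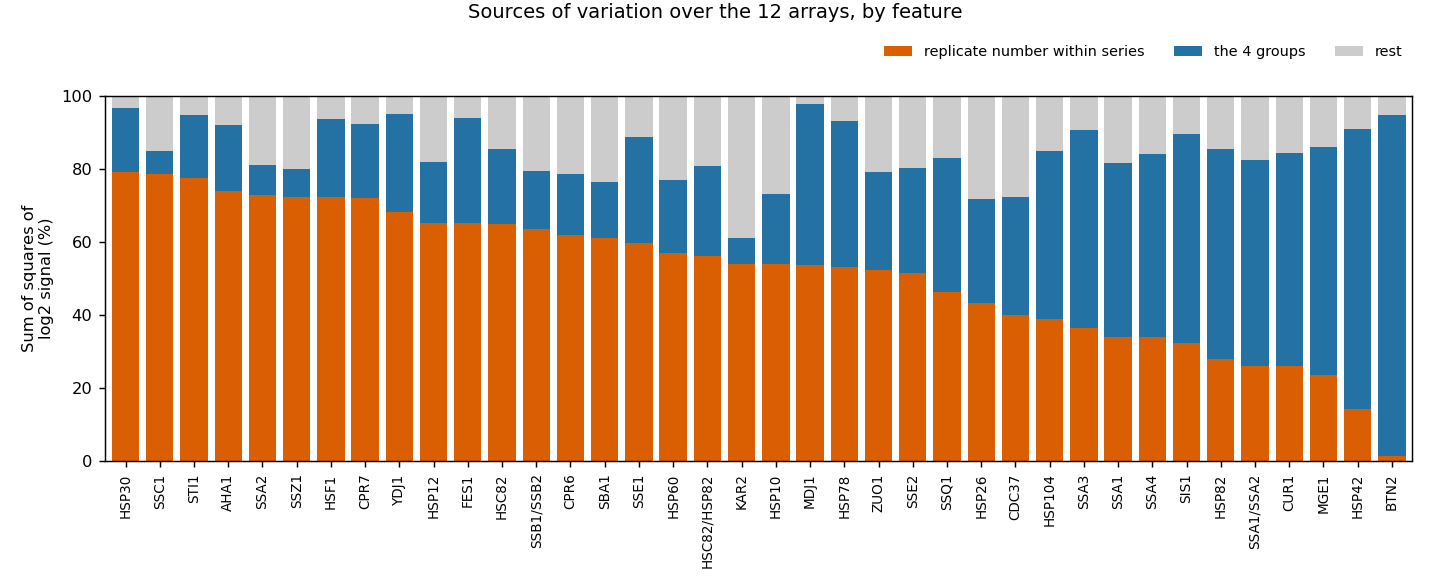
Share of each feature's sum of squares over the 12 arrays, in percent, taken by the 4 groups, by the replicate number and by the rest, for the 38 tested features. BTN2 has 93.4% in the groups and HSP30 has 79.1% in the replicate number.

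Other chaperones and regulators, 50 genes of which 48 were tested, gave a context for the members. None passed without the block in rap1 ts, where 0.405% of all features did. With the block 10 rose and 2 fell, shares of 20.8% and 4.17%, against 15% and 10% of all features. JJJ1, a J protein of ribosome assembly, rose by 1.42 (limma adjusted p = 0.00803 with the block) and PIH1, a partner of Hsp90 in the assembly of protein complexes, by 1.24 (0.00689) on the log2 scale. PAM16 and ECM10, part of the mitochondrial import motor and a matrix Hsp70, rose by 1.10 (0.0119) and 0.96 (0.0158). PAC10, a prefoldin subunit, rose by 0.78 (0.0131).

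The 2 that fell, fewer than the share of all features, were regulators. MSN2, the general stress transcription factor, fell by 0.98 on the log2 scale and HAC1, the transcription factor of the unfolded protein response, by 1.28 (limma adjusted p = 0.0398 and 0.0408 with the block). None of the 8 subunits of the cytosolic chaperonin TRiC and none of the 10 further chaperones of the endoplasmic reticulum passed the test, where 25% of all features did with the block.

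In abf1 ts none of the 48 passed the test without the block or with it, where 0.0427% and 0.213% of all features did. No gene of these lists passed without a block in the difference of the mutant effects or between the mutants. With the within-series block the difference passed for 3 of 48, a share of 6.25% near the 6.21% of all features. They were PAM16 at 2.07 (limma adjusted p = 0.0182), SGT1, a cochaperone of Hsp90, at 1.32 (0.0394) and PIH1 at 1.21 (0.0412). Between the mutants, with the block over all arrays, 4 of 48 were higher in rap1 ts (8.33%, against 5.42% of all features) and 1 was lower (2.08%, against 3.9%). PAM16 at 1.496 (0.00598), SGT1 at 0.86 (0.0391), PIH1 at 0.78 (0.0365) and GIM4, a prefoldin subunit, at 0.70 (0.0397) were higher in rap1 ts. MBF1, a transcriptional coactivator, was lower in rap1 ts by -2.38 (0.0364).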

How the data were processed

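The 12 RNA samples were labelled with biotin and hybridised to 1 Affymetrix array each. The authors deposited 1 intensity per probe set and array, which the submitters' processing notes credit to MAS5; its software version is not given in the sources used here. Of 9335 probe sets, 60 were controls, 6504 named 1 gene, 328 several and 2443 none in the platform's annotation. Gene names follow that annotation, and no coordinates or sequences are used here.

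The deposited intensity was not scaled again. A constant of 13, the table's 10th percentile without controls, was added before log2 was taken, and the probe set of highest mean was kept per gene or gene pair. Features with a mean under the 20th percentile (8.16) were left out, which left 4543 of single genes and 144 of several. Group means were fitted over all 12 arrays with limma 3.58.1 (R 4.3.3, eBayes with a trend), and p-values were adjusted by Benjamini and Hochberg over 4687 features, with calls at 0.05. Fold changes are on the log2(signal + 13) scale and understate the change of dim genes, and 3 arrays a group limit the precision. The fit was also run on simulated data with known changes, whose outcome is not given here.

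The replicate number comes from the sample titles and was not a term in the main fit. Arrays of equal number had deviations from their group means that correlated at 0.25 to 0.82 within each series, so every pair exceeded 0.1 and the numbers were taken as pairs. Across series the correlation was 0.36 to 0.60 for the mutants and 0.05 to 0.53 for the wild types. The wild types were therefore not taken as pairs. Correlations between arrays of unequal number are not given here, so this rule does not show what a number marks. The block over all 12 arrays was added after seeing the data. No pair of arrays shared more than 36 identical values. The control ratio was tested by a two-sided exact permutation test. The alternatives were other offsets, filters and scalings, the mean over probe sets, a fit of 6 arrays, no trend, the block and leaving out each array.

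Members, classes and lists were chosen with earlier results of these data known. Values per array are given for members called in any comparison, for the paralogue pairs and for HSF1. Of other lists up to 2 called genes per direction are named, by their log2 difference alone. CUR1, FES1, HSP26, MGE1, STI1 and the other members were added after their values were seen.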

Additional observations from a re-analysis of the deposited data

Results flagged for a closer look

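HSP30 was singled out because the effects of both mutants differed by 1.83 on the log2 scale and passed limma's test with the replicate block (adjusted p = 0.0382), though not without it (0.630). The mutant minus wild type differences by pair were 1.31, 3.09 and 1.53 in the rap1 series and 0.55, 0.056 and -0.15 in the abf1 series.

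For CDC37, FES1 and the SSA1/SSA2 feature all 3 pairs of one series moved opposite to all 3 pairs of the other. The mutant was higher in the rap1 series and lower in the abf1 series, and the effects differed by 0.43, 0.49 and 0.66 on the log2 scale. None of these differences passed limma's test, with adjusted p = 0.577, 0.524 and 0.387 without the block and 0.314, 0.167 and 0.116 with it.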

How the results depend on the processing

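The replicate block rests on a pairing inferred from the same data. It changed the calls in the rap1 comparison from 0 to 7 members higher. In the difference of the mutant effects it changed them from 0 to 1, and in abf1 ts it changed none. With the number as a block over all arrays, added after seeing the data, 4 members rose in rap1 ts (BTN2, HSP30, MDJ1 and SSA4), 0 passed in the difference and 1 was lower between the mutants. With the within-series block, quantile scaling gave 6 and median centring 7 members higher in rap1 ts, and 2 and 3 in the difference. Of all 4687 features, the block called 1171 in rap1 ts and 426 in the difference, the all-array block 940 and 273, quantile scaling 1212 and 436, and median centring 1152 and 576. Leaving out a pair from the blocked fit left 1 to 4 members higher and 0 to 3 lower in rap1 ts, 172 to 837 features called in all, and 0 in the difference. The within-series block cannot give comparisons between series and was not run there.

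Median centring moved the constitutive median to -0.014 in rap1 ts, -0.030 in the difference and -0.023 between wild types, the members' median to -0.39 between wild types and to 0.050 between mutants. The 50th percentile filter gave constitutive medians of -0.028 in rap1 ts, -0.029 in the difference and -0.070 between mutants, and quantile scaling gave -0.049 between wild types.

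Leaving out 1 array gave members' medians of 0.22 to 0.74 in rap1 ts, -0.19 to 0.058 in abf1 ts, 0.20 to 0.72 for the difference, -0.73 to -0.22 between wild types and -0.27 to 0.16 between mutants. Inducible medians ran from 0.41 to 1.29, -0.095 to 0.23, 0.54 to 1.32, -1.82 to -1.04 and -0.64 to -0.11, and constitutive ones from 0.0011 to 0.18, -0.12 to 0.045, -0.024 to 0.20, -0.24 to -0.0092 and -0.034 to 0.17. Without array 1 of rap1 ts, 1 member (BTN2) was called lower between wild types, against 0 with all arrays. That array is in neither wild type group, so only the estimated spread and the p-values changed, not the difference. The share of all features called in that fit is not given here, so the call does not set BTN2 apart. In rap1 ts SSA2 ran from -0.31 to 0.93, SSE1 from -0.17 to 0.045, SSB1/SSB2 from -0.41 to 0.015, HSC82 from -1.05 to 0.20 and HSF1 from -0.12 to 0.48, so their directions were not settled. SSA3 ran from 0.39 to 1.19 and SSE2 from 0.386 to 1.40. The cause of these shifts was not tested. HSP30, SSA4 and BTN2 kept their direction in rap1 ts in every alternative that tested them. So did HSP82, MDJ1, SSQ1 and SSA1/SSA2, and also SSA1, SSA3 and SSE2, which were not called.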

Other observations

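APJ1, the J protein gene below the filter on low signals, was described without a test. Its signals were 109, 103 and 90.2 in the rap1 wild type, 114, 186 and 93.6 in rap1 ts, 225, 301 and 122 in the abf1 wild type and 352, 169 and 85.7 in abf1 ts. The difference of the log2 means was -0.93 between the wild types, in the direction of the other inducible genes, and 0.29 between rap1 ts and its wild type.

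Array 3 of the abf1 wild type held the highest signal of 17 of the 38 members, against 4.86% of all features. Array 1 of rap1 ts held the lowest signal of 9 members and of 27.8% of all features.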
